A study of Mus musculus with 12 samples.

Results

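Cholesterol is built from acetyl-CoA in a long chain of enzymes, and 7 of these enzymes are described here in RAW264 cells, a mouse macrophage line. They were chosen by name from the sterol pathway and matched to the files through their Ensembl identifiers, and all 7 are among the 9621 genes listed there. They are Hmgcs1 (ENSMUSG00000093930), Idi1 (ENSMUSG00000058258), Fdps (ENSMUSG00000059743), Fdft1 (ENSMUSG00000021273), Sqle (ENSMUSG00000022351), Lss (ENSMUSG00000033105) and Cyp51 (ENSMUSG00000001467). Libraries of 2 kinds were sequenced from the cells. Ribosome-protected fragments (RPF, or footprints) are the stretches of mRNA covered by ribosomes, and poly(A) mRNA gives the abundance of the transcript itself. Per the labels, cells received 100 ng/ml lipopolysaccharide (LPS) together with 10 µM of the glucocorticoid dexamethasone (LPS+DEX) for 30 min, or LPS alone for 30 min, or neither (basal). All of them, basal cells included, were incubated with cycloheximide at 100 µg/ml before extraction, which holds ribosomes on mRNA. Each condition has 2 independent biological replicates in each assay, 12 libraries in all, and every culture is of the same line.

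Hmgcs1 makes HMG-CoA, the precursor of mevalonate. Idi1 interconverts the 5-carbon isoprene units and Fdps joins them into farnesyl diphosphate, from which both sterols and protein prenyl groups are made. Fdft1, squalene synthase, joins a pair of farnesyl diphosphates to squalene and is the step that commits the chain to sterols. Sqle, squalene epoxidase, Lss, lanosterol synthase, and Cyp51, the lanosterol demethylase, then carry squalene towards cholesterol. The genes of the chain are known targets of the sterol-sensing transcription factor SREBP-2, which is released from the endoplasmic reticulum when membrane cholesterol is low. In macrophages the pathway is known for its link to inflammatory signalling and for its balance with cholesterol export through LXR target genes.

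Promoter sequences of 4 of the 7 enzymes (Hmgcs1, Idi1, Lss and Cyp51) were in the RefSeq table used, on the build GRCm38.p6. They are shown because genes of this pathway are classically read through a sterol regulatory element beside CCAAT boxes, where SREBP and NF-Y bind. The letters searched, on both strands, were TCACNCCAC for the element and CCAAT for the box, and they do not overlap each other in these promoters. In windows of 300 bases (250 before and 50 after the start), TCACNCCAC was found in 1.24% of 32851 mouse promoters and CCAAT in 37.4%. Of the 4, Hmgcs1 alone held a match to TCACNCCAC, with its first base 137 bases before the start, and all 4 held at least 1 CCAAT. Sterol regulatory elements with other letters were not searched for, so the lack of a match does not show that an element is absent. The stretch of 250 bases before the Hmgcs1 start (chr13:119690101-119690350, plus strand) and a window round a CCAAT box of each of the others are given 5′ to 3′. Capitals mark the matches, and ATTGG is CCAAT read on the other strand.
Hmgcs1: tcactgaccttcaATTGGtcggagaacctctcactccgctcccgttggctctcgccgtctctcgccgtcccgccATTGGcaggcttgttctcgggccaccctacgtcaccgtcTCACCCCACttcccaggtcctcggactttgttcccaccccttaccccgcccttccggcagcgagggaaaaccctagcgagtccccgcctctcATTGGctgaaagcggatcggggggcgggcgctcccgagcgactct
Idi1: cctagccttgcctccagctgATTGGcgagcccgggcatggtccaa
Lss: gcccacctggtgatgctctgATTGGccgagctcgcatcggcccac
Cyp51: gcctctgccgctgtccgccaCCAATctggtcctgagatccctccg
The windows lie at chr13:8885541-8885585 (plus strand) for Idi1, chr10:76531523-76531567 (plus strand) for Lss and chr5:4104702-4104746 (minus strand) for Cyp51. The matches are descriptions of letters, and binding was not measured in these libraries.

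RPF libraries held about 822000 to 1834000 reads and mRNA libraries about 1475000 to 2530000, as recovered from the values, with the 2 RPF libraries of LPS cells the shallowest. Each value is a gene's reads relative to all reads of its library (CPM), so 3 reads were worth 1.19 to 3.65 CPM, and each enzyme had 50 to 847 reads in an RPF library and 20 to 1379 in an mRNA library. CPM is not divided by gene length, so levels are compared between conditions and never between genes. All 10 macrophage markers were detected in every library, at a summed 4907 to 6849 CPM. Replicate 1 of the basal mRNA libraries differed most from the rest, with Spearman correlations across genes of 0.781 to 0.831 to the other mRNA libraries, which correlated at 0.894 to 0.98 among themselves. It also held 1108 CPM of the epithelial keratin Krt7, against at most 1.98 CPM in the other mRNA libraries, and Krt7 is the only one of 16 markers of other cell types that is listed. The treatments were visible in footprints: the cytokine Tnf had 1057 and 813 CPM in LPS+DEX cells and 1267 and 1263 CPM in LPS cells, against 58.8 and 48.0 CPM in basal cells. The glucocorticoid-induced phosphatase Dusp1 had 223 and 221 CPM in LPS+DEX cells, against 16.9 and 18.2 CPM in LPS cells and 7.63 and 5.26 CPM in basal cells. In bulk libraries, a change in the number of cells that express a gene and a change per cell cannot be told apart.

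Fdft1 was the one enzyme of the 7 with a footprint change that passed the test, and its mRNA did not pass in any comparison. Hmgcs1 footprints passed for LPS+DEX against basal only with other settings, given below. Over all genes tested, 7.62% passed in footprints for LPS against basal and 6.69% for LPS+DEX against LPS. Fdft1 footprints were 76.2 and 84.5 CPM in LPS+DEX cells, 218 and 164 CPM in LPS cells, and 84.7 and 65.1 CPM in basal cells. Both LPS libraries lay above all 4 others, and the LPS+DEX and basal libraries overlapped. Fdft1 footprints rose by a log2 fold change of 1.34 ± 0.17 in LPS cells against basal cells (SE, n = 2 libraries each; limma, Benjamini-Hochberg adjusted p = 0.00023), which is 2.53-fold. In LPS+DEX cells against LPS cells they fell by 1.23 ± 0.17 on the log2 scale (limma adjusted p = 0.000533). Against basal cells, LPS+DEX cells differed by 0.11 ± 0.17 (limma adjusted p = 0.804). These comparisons share libraries, so they are not independent of each other: a high LPS value enters both that passed. All log2 changes are on the log2(CPM + 1) scale, a gene passed at an adjusted p under 0.05 over all genes tested, and tests were two-sided.

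Fdft1 mRNA was 70.4 and 61.1 CPM in LPS+DEX cells, 55.0 and 62.8 CPM in LPS cells, and 44.1 and 68.7 CPM in basal cells. The conditions overlapped, and the widest gap between replicates was in basal cells, where the lower value is from replicate 1, the library least like the rest. The mRNA differences were 0.09 ± 0.24 (log2) for LPS against basal, 0.16 ± 0.24 for LPS+DEX against LPS and 0.25 ± 0.24 for LPS+DEX against basal (limma adjusted p = 0.82, 1.0 and 0.476). No gene at all passed in mRNA for LPS+DEX against LPS. Footprints over mRNA, the translational efficiency (TE), were therefore 1.08 and 1.38 in LPS+DEX cells, 3.97 and 2.61 in LPS cells, and 1.92 and 0.947 in basal cells, taking libraries with the same replicate number. The TE of Fdft1 rose by 1.25 ± 0.31 (log2) in LPS cells against basal cells (limma interaction over 12 libraries, adjusted p = 0.0181). Without RPF LPS replicate 1 it measured 1.04, without RPF basal replicate 2 it measured 1.06 and without mRNA LPS replicate 1 it measured 1.15, and each of these missed the threshold (limma adjusted p = 0.072, 0.0779 and 0.0539). In LPS+DEX cells against LPS cells it measured -1.38 ± 0.31 and did not pass (limma adjusted p = 0.148). A fit of these 2 treatments alone has the same estimate, since the same libraries give it, and a limma adjusted p of 0.0151. Over all genes, 16 were higher and 55 lower in that fit, against 1 and 4, so the gain is not particular to Fdft1. Leaving out either basal mRNA library kept the estimate of -1.38, and Fdft1 TE then passed too. The LPS libraries lay above the others in TE as they did in footprints, since both rest on the same RPF libraries.

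**Figure D1:**
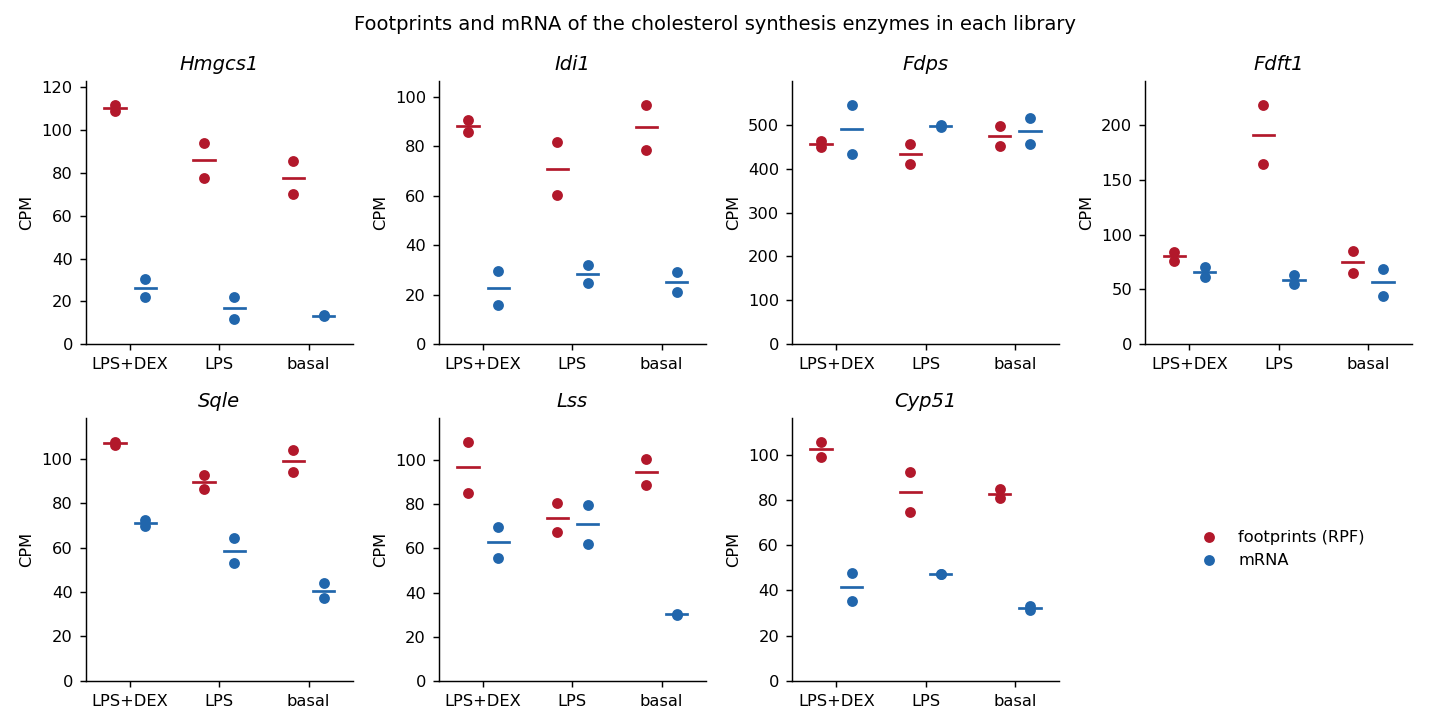
Footprint (RPF, red) and mRNA (blue) levels of the 7 enzymes in CPM, from LPS+DEX, LPS and basal cells; each point is 1 library and each bar the mean of 2. Fdft1 footprints in LPS cells lie at 164 and 218 CPM, above the 4 other RPF libraries, while its mRNA values overlap across conditions; Lss mRNA lies near 30 CPM in basal cells and at 55.8 to 79.5 CPM in treated cells.

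Both RPF libraries of LPS cells also differed from the others in more than Fdft1. The summed footprints of the 13 mitochondrially encoded genes were 2168 and 1897 CPM in LPS+DEX cells, 8681 and 9481 CPM in LPS cells, and 4111 and 3653 CPM in basal cells. They moved in the same direction as Fdft1, in the shallowest libraries of the series, and their part in the Fdft1 result was not tested. In RefSeq the gene Ctsb, which encodes the lysosomal protease cathepsin B, overlaps the end of Fdft1, and without a stated use of strand in the counting, reads from the overlap cannot be told apart. Ctsb footprints were 2872 and 2782 CPM in LPS+DEX cells, 3153 and 3293 CPM in LPS cells, and 3376 and 3420 CPM in basal cells. They were lower in both LPS libraries than in both basal libraries, the opposite order to Fdft1, and lower in both LPS+DEX libraries than in both LPS libraries, the same order as Fdft1. The miRNA gene Gm51283 inside Fdft1, the long non-coding RNA 4930483K19Rik at Lss and the small nuclear RNA Gm22935 inside Fdps are not listed in the files.

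The early enzymes of the chain had no change that passed. Hmgcs1 footprints were 108.9 and 111.8 CPM in LPS+DEX cells, 94.0 and 77.9 CPM in LPS cells, and 70.2 and 85.5 CPM in basal cells, so both LPS+DEX libraries lay above the others. The difference of LPS+DEX from basal was 0.50 ± 0.15 (log2) and missed the threshold (limma adjusted p = 0.0846). Hmgcs1 mRNA was low, at 22.1 and 30.6 CPM in LPS+DEX cells, 11.8 and 21.97 CPM in LPS cells, and 13.6 and 13.0 CPM in basal cells. The LPS+DEX libraries were again the highest, with an mRNA difference from basal of 0.92 ± 0.35 that did not pass (limma adjusted p = 0.0969). With limma-voom on reads, Hmgcs1 footprints passed for LPS+DEX against basal, at the same size (0.50, adjusted p = 0.0437), and so they did without RPF basal replicate 2 (0.64, adjusted p = 0.0485).

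Idi1, the isomerase, had footprints of 85.9 and 90.5 CPM in LPS+DEX cells, 60.3 and 81.5 CPM in LPS cells, and 78.6 and 96.7 CPM in basal cells. Its mRNA was 15.8 and 29.7 CPM in LPS+DEX cells, 31.9 and 24.6 CPM in LPS cells, and 21.0 and 29.2 CPM in basal cells. The conditions overlapped in mRNA, and in footprints both LPS libraries lay below both LPS+DEX libraries and overlapped with basal. Fdps, the farnesyl diphosphate synthase, had footprints of 450.0 and 461.9 CPM in LPS+DEX cells, 456.9 and 411.2 CPM in LPS cells, and 451.8 and 497.2 CPM in basal cells. Its mRNA was 545.1 and 434.2 CPM in LPS+DEX cells, 499.4 and 494.2 CPM in LPS cells, and 455.6 and 514.8 CPM in basal cells. Fdps footprint changes lay within 0.13 and its mRNA changes within 0.04 of 0 (log2), with SE of 0.10 and 0.14. With median-of-ratios scaling its mRNA measured -0.23 in LPS cells and -0.29 in LPS+DEX cells against basal cells, and neither passed (limma adjusted p = 0.373 and 0.219).

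Of the enzymes after squalene, Lss and Sqle rose in mRNA, and no footprint change of Lss, Sqle or Cyp51 passed. Lss mRNA was 69.6 and 55.8 CPM in LPS+DEX cells and 62.1 and 79.5 CPM in LPS cells, against 29.8 and 30.3 CPM in basal cells. All 4 treated libraries lay above both basal libraries, including the basal replicate 1 that differed from the rest. Lss mRNA rose by 1.20 ± 0.21 (log2) in LPS cells against basal cells and by 1.03 ± 0.21 in LPS+DEX cells against basal cells (limma adjusted p = 0.0228 and 0.0143). Without either mRNA library of LPS cells the first of these missed the threshold, at 1.37 without replicate 1 and 1.02 without replicate 2. Such a fit leaves 1 library in the group, and few of all genes tested then passed, so the miss is not particular to Lss. Without mRNA LPS+DEX replicate 1 the second missed it too, at 0.87, again in a fit that few of all genes passed. Lss footprints were 108.3 and 85.1 CPM in LPS+DEX cells, 67.5 and 80.3 CPM in LPS cells, and 88.5 and 100.6 CPM in basal cells. Both LPS libraries lay below the others, but the differences of -0.35 ± 0.16 for LPS against basal and 0.38 ± 0.16 for LPS+DEX against LPS did not pass (limma adjusted p = 0.215 and 0.2).

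Lss TE was 1.56 and 1.52 in LPS+DEX cells, 1.09 and 1.01 in LPS cells, and 2.97 and 3.32 in basal cells, again taking libraries with the same number. Both treated conditions lay below basal. It fell by 1.55 ± 0.27 on the log2 scale in LPS cells against basal cells and by 1.003 ± 0.273 in LPS+DEX cells against basal cells (limma interaction, adjusted p = 0.00343 and 0.0279). The median over all genes tested was -0.34 in both of these comparisons, so part of each value is shared with the bulk of genes. With median-of-ratios scaling, which moves that median by 0.29 and 0.33, the falls measured -1.26 and -0.68, and the second missed the threshold (limma adjusted p = 0.143). The second also missed it without mRNA LPS+DEX replicate 1 (-0.85), RPF basal replicate 1 (-1.09), RPF basal replicate 2 (-0.91) or RPF LPS+DEX replicate 2 (-0.83), with limma adjusted p of 0.0958, 0.0524, 0.0965 and 0.113. The same scaling shifts mRNA changes by -0.26 for LPS and -0.28 for LPS+DEX against basal, and Lss mRNA then rose by 0.94 and 0.74.

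Sqle mRNA was 69.6 and 72.2 CPM in LPS+DEX cells and 53.2 and 64.1 CPM in LPS cells, against 37.3 and 43.8 CPM in basal cells. The 3 conditions did not overlap. Sqle mRNA rose by 0.79 ± 0.19 (log2) in LPS+DEX cells against basal cells (limma adjusted p = 0.0225), and with median-of-ratios scaling it measured 0.51 and did not pass (adjusted p = 0.087). It also missed the threshold without mRNA basal replicate 1 (0.68), LPS+DEX replicate 1 (0.82) or LPS+DEX replicate 2 (0.77). Each of these fits leaves 1 library in a group, and without LPS+DEX replicate 1 few of all genes tested passed. Its footprints were 107.7 and 106.4 CPM in LPS+DEX cells, 92.8 and 86.4 CPM in LPS cells, and 93.9 and 103.9 CPM in basal cells, a range narrower than that of its mRNA. Sqle TE measured -0.66 ± 0.22 for LPS and -0.68 ± 0.22 for LPS+DEX against basal and did not pass in either (limma adjusted p = 0.0603 and 0.0589). The median over all genes tested was -0.34 in both comparisons, so part of each value is shared with the bulk of genes. With median-of-ratios scaling Sqle TE measured -0.37 and -0.35, and neither passed (limma adjusted p = 0.284 and 0.331). Without mRNA basal replicate 2 both passed, at -0.77 and -0.79, and without mRNA LPS replicate 1 the LPS value passed, at -0.79. These fits too leave 1 library in a group. Without mRNA basal replicate 2 that library is basal replicate 1, which differed most from the rest. Cyp51 had footprints of 105.8 and 99.3 CPM in LPS+DEX cells, 74.8 and 92.5 CPM in LPS cells, and 84.7 and 80.9 CPM in basal cells, so the LPS+DEX libraries were the highest. Cyp51 mRNA was 35.2 and 47.9 CPM in LPS+DEX cells and 47.3 and 47.4 CPM in LPS cells, against 31.2 and 33.0 CPM in basal cells. Both treated conditions lay above basal in mRNA, and no Cyp51 difference passed (lowest limma adjusted p = 0.131, in mRNA, for LPS against basal). The Cyp51 mRNA differences from basal were 0.55 ± 0.21 (log2) for LPS and 0.35 ± 0.21 for LPS+DEX. The medians over all genes tested were 0.26 and 0.28, so part of each difference is shared with the bulk of genes. With median-of-ratios scaling Cyp51 mRNA measured 0.29 and 0.06.

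**Figure D2:**
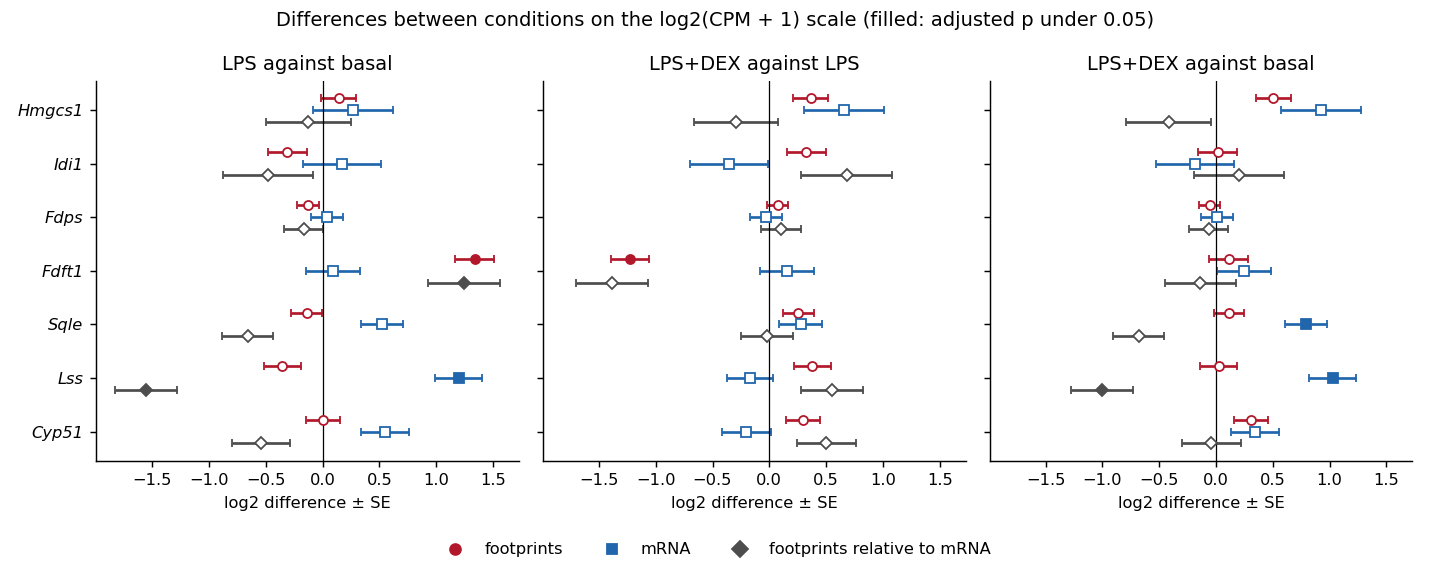
Log2 differences ± SE of the 7 enzymes in footprints (circles), mRNA (squares) and TE (diamonds) for the 3 comparisons, n = 2 libraries a group; filled symbols have an adjusted p under 0.05. Fdft1 footprints stand at 1.34 for LPS against basal and at -1.23 for LPS+DEX against LPS, and Lss has filled symbols in mRNA on the right of 0 and in TE on the left.

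Counts of enzymes that passed were read against the share of all genes. In footprints 1 of 7 passed for LPS against basal (Fdft1), 1 for LPS+DEX against LPS (Fdft1) and none for LPS+DEX against basal, where 7.62%, 6.69% and 4.63% of all genes tested passed. The median footprint change of the 7 was -0.13, 0.30 and 0.11 (log2), beside -0.07, 0.02 and -0.05 over all genes. In mRNA 1 of 7 passed for LPS against basal (Lss), none for LPS+DEX against LPS and 2 for LPS+DEX against basal (Sqle and Lss), where 10.7%, 0% and 22.7% of all genes passed. The 0% is 0 of 9277 genes in limma-trend and also in limma-voom, and 183 genes had an unadjusted p under 0.05. Dusp1 mRNA, at 41.4 and 54.9 CPM in LPS cells and 441 and 483 CPM in LPS+DEX cells, did not pass either. A miss in this comparison therefore does not show that an mRNA was unchanged. The median mRNA change of the 7 was 0.27, -0.03 and 0.35, beside 0.26, 0.02 and 0.28 over all genes. In TE 2 of 7 passed for LPS against basal (Fdft1 higher, Lss lower), none for LPS+DEX against LPS and 1 for LPS+DEX against basal (Lss lower), where 16.6%, 0.0531% and 14.9% of all genes passed. The median TE change was -0.48, 0.10 and -0.14, beside -0.34, -0.01 and -0.34 over all genes. A count of 0 to 2 of 7 lies near these shares and says nothing of the 7 as a group. Fdft1 by itself ranked 146 from the top of 8847 genes in footprints for LPS against basal and 175 from the bottom for LPS+DEX against LPS. Both ranks rest on the same LPS libraries, and the genes were chosen with earlier results of these data known. The ranks are therefore descriptions only. The balance of directions over all genes depends on the scaling: mRNA of LPS against basal had 838 genes higher and 156 lower, and 184 higher and 317 lower with median-of-ratios scaling.

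Within each condition, most of the 7 mRNAs carried more footprints than their mRNA share. TE levels can be set side by side between genes, because gene length largely cancels in the ratio, although footprints cover the coding part and mRNA reads the whole transcript. Hmgcs1 had the highest, at 2.04 ± 0.26 (log2, SE) in LPS+DEX cells, 2.34 ± 0.26 in LPS cells and 2.46 ± 0.26 in basal cells. Idi1 stood at 1.97 ± 0.28, 1.29 ± 0.28 and 1.77 ± 0.28 in LPS+DEX, LPS and basal cells, and in LPS+DEX cells it lay within 1 SE of Hmgcs1. Cyp51 stood at 1.30 ± 0.18, 0.80 ± 0.18 and 1.34 ± 0.18, and Sqle at 0.59 ± 0.16, 0.61 ± 0.16 and 1.27 ± 0.16. Each of these 4 was above 0 in every condition by limma, and Fdps was near 0 in all of them, at -0.09 ± 0.12, -0.20 ± 0.12 and -0.03 ± 0.12. With median-of-ratios scaling, which lowers the basal TE of all genes by a median of 0.27, basal Fdps passed below 0 (-0.31, limma adjusted p = 0.0485).

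Fdft1 and Lss changed places in this order. Fdft1 TE was 0.29 ± 0.22 in LPS+DEX cells, 1.67 ± 0.22 in LPS cells and 0.43 ± 0.22 in basal cells, and differed from 0 in LPS cells alone (limma adjusted p = 0.3, 4.53e-05 and 0.127). Without mRNA basal replicate 2 the basal value was 0.74 and passed (adjusted p = 0.0138). Lss TE was 0.61 ± 0.19 in LPS+DEX cells, 0.07 ± 0.19 in LPS cells and 1.62 ± 0.19 in basal cells, and did not pass in LPS cells (limma adjusted p = 0.0175, 0.792 and 1.61e-05). The LPS+DEX value of Lss missed the threshold without mRNA LPS+DEX replicate 2 (0.46, adjusted p = 0.119) or RPF LPS+DEX replicate 1 (0.44, adjusted p = 0.163), and the LPS value of Sqle without mRNA LPS replicate 1 (0.48, adjusted p = 0.058). In basal cells the order of the 7 was Hmgcs1, Idi1, Lss, Cyp51, Sqle, Fdft1 and Fdps, and the gaps between neighbours from Idi1 to Sqle were about the size of their SE. In LPS cells Fdft1 stood second after Hmgcs1 and Lss sixth. The gap from Fdft1 to Idi1, at 1.29 ± 0.28 in LPS cells, was not much larger than their SE, so the order of these genes is not settled. In each condition 5 of 7 were above 0 by the test and none below, where 23.8% of all genes were above 0 in LPS+DEX cells, 24.8% in LPS cells and 33.4% in basal cells. The median TE level of the 7 was 0.61, 0.80 and 1.34 in LPS+DEX, LPS and basal cells, beside -0.08, -0.06 and 0.21 over all genes tested.

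**Figure D3:**
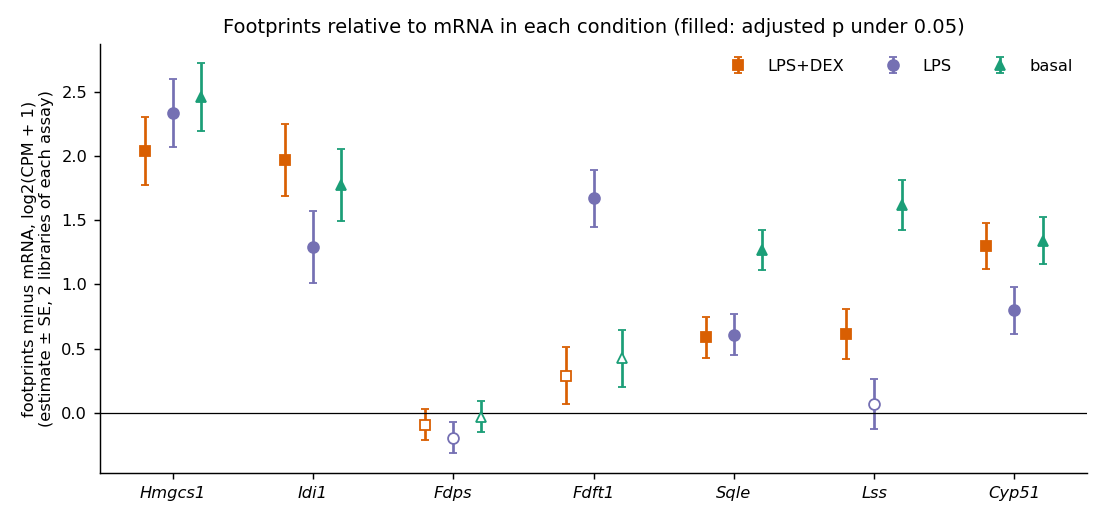
Footprints minus mRNA on the log2(CPM + 1) scale (estimate ± SE) for each enzyme in LPS+DEX (squares), LPS (circles) and basal cells (triangles), from 2 libraries of each assay; filled symbols have an adjusted p under 0.05. Fdft1 is highest in LPS cells (1.67) and Lss highest in basal cells (1.62), while Fdps stays within 0.20 of 0.

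Fdft1 did not move with the other enzymes across the libraries. Over the 12 libraries, on log2(CPM + 1) centred within each assay, Pearson's r with Fdft1 was -0.03 for Sqle, -0.15 for Fdps, -0.18 for Cyp51, -0.18 for Lss and -0.45 for Idi1, among 5605 genes with a mean of at least 20 CPM in both assays. Their ranks from the top of these genes were 3093 for Sqle, 3822 for Fdps, 3972 for Cyp51, 4014 for Lss and 5065 for Idi1. Hmgcs1 was not ranked because its mRNA averaged under 20 CPM. The values are descriptions: the libraries share treatments, and the 2 RPF libraries of LPS cells are the ones in which Fdft1 is high.

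The 5 genes most like Fdft1 were Emg1 (r = 0.917), Dok1 (0.911), Pcdhgc4 (0.909), Ubap1 (0.909) and Tsr3 (0.9). Dok1, an adaptor protein of tyrosine kinase signalling, had footprints of 51.4 and 38.2 CPM in LPS+DEX cells, 148 and 152 CPM in LPS cells, and 54.2 and 42.7 CPM in basal cells. Pcdhgc4, a clustered protocadherin, had 19.4 and 6.54 CPM in LPS+DEX cells, 131 and 186 CPM in LPS cells, and 15.3 and 5.92 CPM in basal cells. In both the LPS libraries lay above all others, which their choice by likeness to Fdft1 fixes, and Pcdhgc4 reached the mean of 20 CPM in footprints only through the LPS libraries. Emg1 and Tsr3, which both modify ribosomal RNA, had footprints of 191.7 and 182.7 CPM (Emg1) and 18.7 and 25.1 CPM (Tsr3) in LPS+DEX cells. In LPS cells they had 268.9 and 261.6 CPM (Emg1) and 35.0 and 35.3 CPM (Tsr3), and in basal cells 199.2 and 180.8 CPM (Emg1) and 22.9 and 17.1 CPM (Tsr3). Ubap1, a subunit of the ESCRT-I sorting complex, had 21.2 and 22.9 CPM in LPS+DEX cells, 36.2 and 30.4 CPM in LPS cells, and 22.1 and 23.0 CPM in basal cells. Of the 5, 4 stayed among the 5 most alike with median-of-ratios scaling and 3 without mRNA basal replicate 1. Pcdhgc4 shares exons with other genes of its cluster, so its reads are uncertain.

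**Figure D4:**
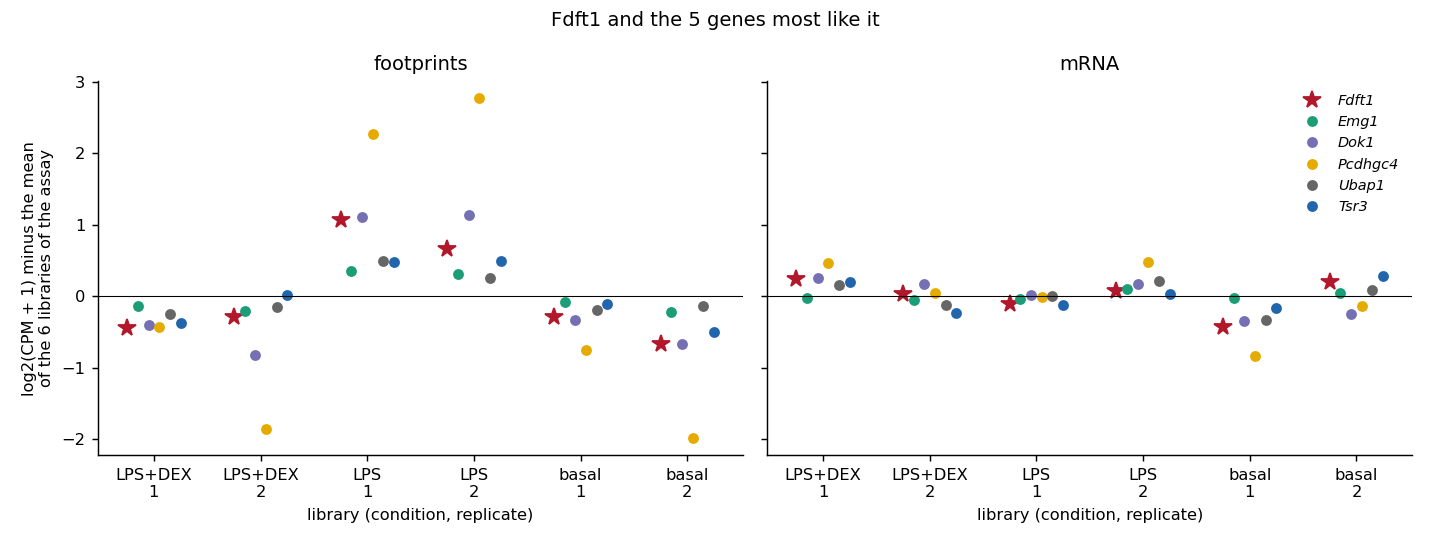
Fdft1 (stars) and the 5 genes with the highest Pearson r to it, as log2(CPM + 1) minus the mean of the 6 libraries of the assay, for each footprint library (left) and mRNA library (right). All 6 genes are highest in the 2 footprint libraries of LPS cells, with values in mRNA nearer to 0.

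The rest of the pathway was described from lists of related genes. Among the other enzymes of the mevalonate arm, 5 of 6 were tested and no footprint change passed in any comparison. In mRNA 1 of 5 rose in LPS cells and 2 of 5 in LPS+DEX cells against basal cells, where 10.7% and 22.7% of all genes passed. In TE 1 of 5 fell in LPS cells against basal cells, where 16.6% of all genes passed. The thiolase Acat2 had mRNA of 41.1 and 55.8 CPM in LPS+DEX cells and 34.9 and 40.9 CPM in LPS cells, against 28.5 and 24.4 CPM in basal cells. Its mRNA rose in LPS+DEX cells against basal cells, by 0.84 ± 0.23 (log2, limma adjusted p = 0.0376), and with median-of-ratios scaling it measured 0.55 and did not pass (adjusted p = 0.13). In LPS cells against basal cells Acat2 mRNA measured 0.50 ± 0.23 and did not pass (limma adjusted p = 0.185). Both treated conditions lay above basal in mRNA, as for Lss. Acat2 footprints were 69.6 and 62.2 CPM in LPS+DEX cells, 55.5 and 52.3 CPM in LPS cells, and 54.9 and 61.8 CPM in basal cells.

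Of the other enzymes after squalene, 7 of 9 were tested, and the sterol reductase Lbr alone passed. Over all genes 10.7% and 22.7% passed in mRNA for LPS and for LPS+DEX against basal, and 16.6% and 14.9% in TE. A count of 1 of 7 lies near these shares and says nothing of the list as a group. Lbr mRNA rose by 0.74 ± 0.17 (log2) in LPS cells and by 0.76 ± 0.17 in LPS+DEX cells against basal cells, with no footprint change that passed. With median-of-ratios scaling the mRNA values were 0.48 (limma adjusted p = 0.157) and 0.47 (adjusted p = 0.114), and the first also missed the threshold without mRNA basal replicate 1 (adjusted p = 0.0642). Its TE fell by 1.14 ± 0.22 in LPS cells and by 0.71 ± 0.22 in LPS+DEX cells against basal cells. With that scaling the LPS+DEX value measured -0.38 and did not pass (limma adjusted p = 0.312), nor did it without mRNA basal replicate 1 (adjusted p = 0.0611). Ggps1 and Tm7sf2 are not listed and are not analysed here. In the branch that uses isoprenoids for prenylation, ubiquinone and dolichol, 9 of 10 genes were tested. None passed in mRNA or footprints, and Fnta, a subunit of the protein prenyltransferases, fell in TE in LPS cells against basal cells (-0.92 ± 0.26). These counts stand beside the same shares of all genes and 7.62% in footprints for LPS against basal.

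Genes that control the pathway were tested as 8 of 11, and their counts stand beside the shares of all genes that passed, which were 10.7% and 22.7% in mRNA for LPS and for LPS+DEX against basal, 7.62% in footprints for LPS against basal, and 16.6% and 14.9% in TE. In mRNA 4 rose and none fell in LPS cells against basal cells, with Scap, the escort of SREBP, at 1.19 ± 0.18 and Srebf1, which encodes SREBP-1, at 0.98 ± 0.23 (log2). In LPS+DEX cells against basal cells 5 rose and none fell, with Srebf1 at 1.47 ± 0.23. In footprints none rose and 2 fell in LPS cells against basal cells, the SREBP protease Mbtps2 (-1.02 ± 0.23) and Insig1 (-0.85 ± 0.22), which retains SREBP in the endoplasmic reticulum. Insig1 footprints were 36.3 and 36.5 CPM in LPS+DEX cells, 21.7 and 26.8 CPM in LPS cells, and 40.4 and 48.7 CPM in basal cells. Both LPS libraries were the lowest, the reverse of Fdft1. Few reads lie behind these footprint values: in the LPS libraries Mbtps2 had 19 and 14 and Insig1 had 18 and 22. In TE 5 of 8 fell in each treated condition against basal, with Insig1 at -1.78 ± 0.35 and Scap at -1.55 ± 0.36 in LPS cells, and Srebf1 at -1.46 ± 0.30 and Mbtps1 at -1.46 ± 0.43 in LPS+DEX cells.

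Of the genes for sterol export, storage and LXR signalling, 9 of 10 were tested in mRNA and 8 in footprints, where 10.7% (LPS) and 22.7% (LPS+DEX) of all genes passed in mRNA against basal. In footprints 7.62% of all genes passed for LPS against basal, with 382 of 8847 lower, and 6.69% for LPS+DEX against LPS. In mRNA 2 rose in LPS cells against basal cells, the exporter Abcg1 (0.97 ± 0.23) and the sterol esterifying enzyme Soat1 (0.90 ± 0.16), and 3 rose in LPS+DEX cells against basal cells, with Abcg1 at 1.37 ± 0.23 and the LXR partner Rxra at 0.999 ± 0.25. In footprints 4 of 8 fell in LPS cells against basal cells, with Rxra at -1.02 ± 0.27 and the lysosomal sterol carrier Npc2 at -0.47 ± 0.13. Rxra had only 17 and 11 reads in the RPF libraries of LPS cells. In LPS+DEX cells against LPS cells 2 of 8 rose, the exporter Abca1 (0.71 ± 0.18) and Npc2 (0.50 ± 0.13). In TE 3 of 9 fell in each treated condition against basal, with Rxra at -1.89 ± 0.38 and Abcg1 at -1.39 ± 0.26 in LPS cells and Nr1h2, which encodes LXR beta, at -1.60 ± 0.42 and Abcg1 at -1.46 ± 0.26 in LPS+DEX cells. All 10 fatty acid synthesis genes on the list were tested, beside the same shares of all genes in mRNA and footprints and 4.63% in footprints for LPS+DEX against basal. In TE 16.6% of all genes passed for LPS against basal, with 1277 of 9412 lower, and 14.9% for LPS+DEX against basal, with 1149 lower, and the median over all genes was -0.34 in both. In mRNA 5 rose in each treated condition against basal, with fatty acid synthase, Fasn, at 1.27 ± 0.23 and acetyl-CoA carboxylase, Acaca, at 1.11 ± 0.28 in LPS cells, and at 1.77 ± 0.23 (Fasn) and 1.497 ± 0.285 (Acaca) in LPS+DEX cells. In footprints the desaturase Scd2 fell in LPS cells against basal cells (-0.41 ± 0.09), Fasn rose in LPS+DEX cells against LPS cells (0.55 ± 0.08), and Acaca (0.60 ± 0.13) and Fasn (0.54 ± 0.08) rose and Scd2 fell in LPS+DEX cells against basal cells. In TE 6 of 10 fell in LPS cells against basal cells, with Fasn at -1.28 ± 0.25 and Fads2 at -1.27 ± 0.21, and 5 of 10 in LPS+DEX cells against basal cells, with Acly at -1.29 ± 0.18 and Fasn at -1.23 ± 0.25.

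These list counts in mRNA depend on the libraries and on the scaling. Without either mRNA library of LPS cells, 1 library is left in that group and few of all genes tested passed. List counts for LPS against basal in those fits are therefore not read. With median-of-ratios scaling, 1 gene each of the control list and the fatty acid list passed for LPS against basal and none of the other lists, with all list medians still above 0. For LPS+DEX against basal, none after squalene, 4 of 8 control genes, 1 of 9 export genes and 4 of 10 fatty acid genes then rose, and 1 of 9 isoprenoid genes fell. In TE of LPS against basal the same scaling left 2 of 8 control genes, 3 of 9 export genes and 4 of 10 fatty acid genes lower, and in TE of LPS+DEX against basal 1, 2 and 3 of them. No gene of any of these lists passed in mRNA for LPS+DEX against LPS, where none of all 9277 genes tested passed.

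**Figure D5:**
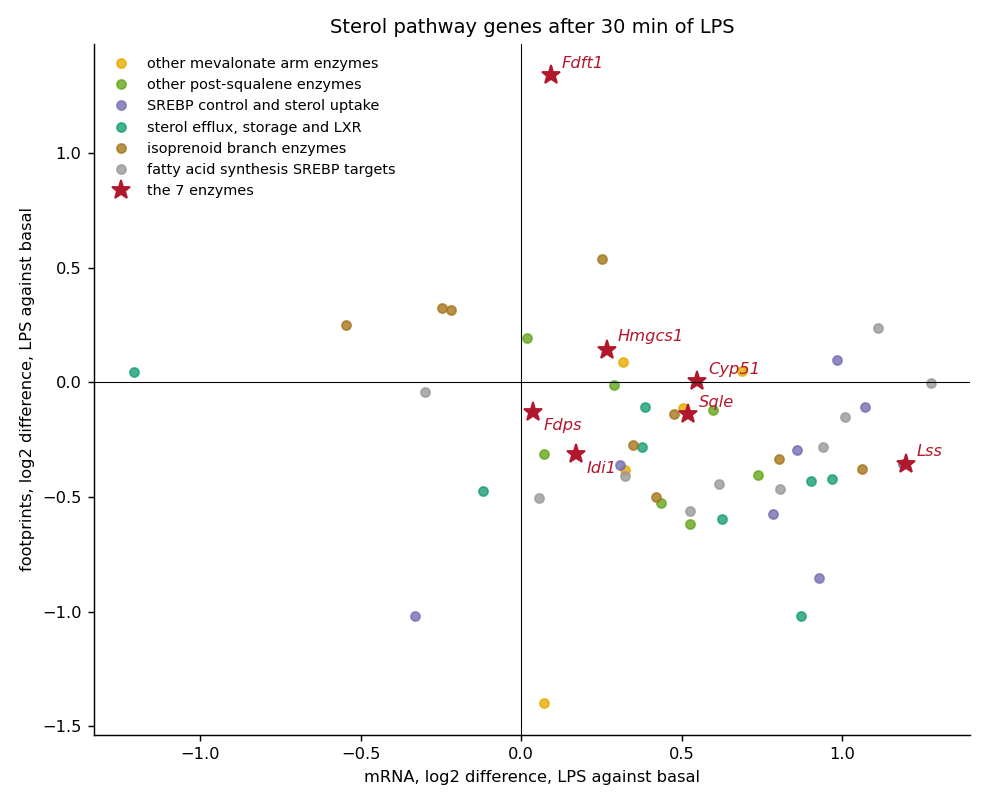
Change in LPS cells against basal cells of the 7 enzymes (stars) and of the tested genes of the related lists (circles, coloured by list), with mRNA on the horizontal and footprints on the vertical axis, both log2; each point is 1 gene, from 2 libraries a group. Fdft1 stands alone at the top (0.09 in mRNA, 1.34 in footprints), and Lss lies at the right (1.20 in mRNA, -0.35 in footprints) among genes of the other lists.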

How the data were processed

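Per the labels, sequencing of both assays used an Ion PGM. How reads were aligned, and to which build, is not given in the sources used here. The values deposited by the authors are CPM + 1 per Ensembl gene; 1 was subtracted to give CPM. This unit was read from the values: the lowest is 1, and after subtraction 100% are whole multiples of 1 read (tolerance 0.1 read). Symbols matched 9521 of 9621 identifiers. The total reads per library set the precision; intervals and floors from reads cover counting error only.

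Genes with at least 10 reads at median depth in 2 libraries and 15 reads in total were tested with limma-trend (limma 3.58.1, R 4.3.3) on log2(CPM + 1), in 1 fit per assay and 1 over all 12 libraries for TE. P-values were adjusted by Benjamini-Hochberg across every gene a fit tested, and 0.05 was the threshold. The fits were tested on simulated data. The members, the gene lists and the tests were chosen with earlier results of these data known. All 7 members are named, and of each other list at most the 2 largest changes that passed per comparison. Some genes of these lists are not reported here. Errors are SE. Alternatives were another scaling, pseudocount, filter, tool, set of libraries, a replicate block, and leaving out each library. Promoters were taken from RefSeq.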

Additional observations from a re-analysis of the deposited data

How the results depend on the processing

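Of 1344 log2 values of the 7 enzymes recomputed under the alternatives, 1316 kept their side of the threshold, 18 lost it and 10 gained it. None that passed changed sign, and 57 values that passed in neither setting did. The Fdft1 footprint calls for LPS against basal and for LPS+DEX against LPS, and the Lss TE call for LPS against basal, held under every alternative run. The number of enzymes that passed became 1 with median-of-ratios scaling in mRNA for LPS+DEX against basal, and 0 in TE for LPS+DEX against basal. It became 1 with limma-voom on recovered reads in footprints for LPS+DEX against basal, and 1 with only the treatments compared in TE for LPS+DEX against LPS; the cause was not tested. Leaving out 1 library at a time gave 0 to 1 enzymes in mRNA for LPS against basal and 0 to 2 for LPS+DEX against basal. It gave 0 to 1 in footprints for LPS+DEX against basal, 1 to 3 in TE for LPS against basal, 0 to 1 in TE for LPS+DEX against LPS and 0 to 2 in TE for LPS+DEX against basal. A condition left with 1 library was assumed to vary like the others.

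Over all genes, counts passing with other settings (higher, lower) were as follows. For LPS against basal, mRNA gave 838 and 156, against 184 and 317 with median-of-ratios scaling, 355 and 109 with limma-voom, 241 and 69 with only the treatments compared, and a total of 6 to 2179 without 1 library. TE gave 290 and 1277, against 558 and 502 with median-of-ratios scaling and 206 and 664 with limma-voom, and 736 to 2164 in total without 1 library. Footprints gave 292 and 382, against 378 and 279 with median-of-ratios scaling, 145 and 136 with no filter, 160 and 163 with only the treatments compared and 310 to 709 in total without 1 library. For LPS+DEX against basal, mRNA gave 1716 and 392, against 720 and 826 with median-of-ratios scaling and 1 to 2875 in total without 1 library. TE gave 252 and 1149, against 507 and 356 with median-of-ratios scaling and 546 to 1895 in total without 1 library. Footprints gave 157 and 253, against 198 and 186 with median-of-ratios scaling, 58 and 74 with no filter, 236 and 383 with limma-voom and 100 to 457 in total without 1 library. For LPS+DEX against LPS, mRNA gave 0 and 0, against 6 and 0 with only the treatments compared, footprints gave 278 and 314, against 117 and 156 with no filter and 103 to 868 in total without 1 library, and TE 1 and 4, against 16 and 55 with only the treatments compared. TE of LPS+DEX against LPS gave 7 and 13 with a pseudocount of 2, and 0 with limma-voom and with the replicate block; 597 genes had an unadjusted p under 0.05. Basal TE levels gave 3148 above and 1628 below 0, against 2361 and 2367 with median-of-ratios scaling.

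Deviations of same-numbered libraries from their group means correlated at -0.209 to 0.103. Counting error also lowers such a correlation, so it cannot show whether same-numbered libraries came from 1 culture. With the replicate block, 1 enzyme passed in mRNA and 1 in footprints for LPS against basal and 2 in TE, as without it, while all-gene mRNA counts for LPS against basal were 337 higher and 53 lower. Of 42 group means in CPM, 34 moved by less than 1 SD with median-of-ratios scaling. Fdft1 had 99 to 181 reads in an RPF library, which limits the precision of its values.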
